A study of Mus musculus with 6 samples.

Results

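ORR1 elements are long terminal repeat (LTR) retrotransposons of rodents, and 1361 of the 34673 H3K9me3 peaks found in wild type (WT) but not in Setdb1 mutant Bergmann glia (BG) were centred on one. These members were all peaks whose deposited annotation names a repeat of the ERVL-MaLR family that begins with ORR1. They made up 3.93% of the list (95% Wilson interval 3.73 to 4.13%, which covers counting error only). BG are the radial astroglia of the cerebellar cortex, along whose fibres granule cells migrate.

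The study compared 2 WT and 2 mutant H3K9me3 libraries, with 2 control libraries, all from C57BL/6 cerebellum at postnatal day 10. By the study's methods, BG were sorted as GFP-positive cells from NesGFP mice, and the mutants were Setdb1 mGFAP CKO-NesGFP mice, in which mGFAP-Cre deletes floxed Setdb1 alleles. NesGFP was thus carried by both genotypes. The Cre is driven by an astroglial promoter but is not particular to BG. The study reports that it acts in all neural cells of the cerebellum other than Purkinje cells. The labels call the control libraries input in their titles and IgG as their antibody. Neither the genotype of these controls nor the number of animals behind a library is given in the sources used here. Marker genes of BG could not be checked, since a list of peaks holds no expression values.

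H3K9me3, trimethylated lysine 9 of histone H3, marks silent chromatin and is deposited by enzymes that include Setdb1. In mammalian cells this mark lies on many LTR retrotransposons and on clusters of zinc finger genes. ORR1 elements belong to the MaLR group, whose members lack the genes needed for their own copying. An intact element has an LTR at each end and an internal part, written -int, and most copies in the genome are single LTRs left by recombination. Subfamilies are lettered from ORR1A, the youngest, to ORR1G, the oldest, and MT elements are their nearest relatives.

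The sequences below are the central 300 bases of the peak with the highest score among all ORR1 peaks and in each of the 5 subfamilies with most peaks, with internal parts counted to their subfamily, and show how far members differ in their bases. For ORR1D2 the next highest is shown, since the highest, near Gramd3, lies on a chromosome whose sequence is not printed. Capitals mark TGGCA on either strand, the core site of nuclear factor I proteins. The ORR1B1, ORR1D1 and ORR1D2 sequences are given on the minus strand, the strand of the LTR copy they lie in, and the others on the plus strand. All are from RefSeq GRCm38.p6.
ORR1F at chr4:147346265-147346564, in intron 1 of Zfp982: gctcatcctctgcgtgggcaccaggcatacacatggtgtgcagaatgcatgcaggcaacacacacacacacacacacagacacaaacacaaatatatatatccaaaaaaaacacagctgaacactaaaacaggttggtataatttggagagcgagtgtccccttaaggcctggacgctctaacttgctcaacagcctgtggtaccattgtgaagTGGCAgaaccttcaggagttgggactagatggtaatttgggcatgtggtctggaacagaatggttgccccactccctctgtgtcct
ORR1E at chr14:118032105-118032404, in intron 6 of Dct: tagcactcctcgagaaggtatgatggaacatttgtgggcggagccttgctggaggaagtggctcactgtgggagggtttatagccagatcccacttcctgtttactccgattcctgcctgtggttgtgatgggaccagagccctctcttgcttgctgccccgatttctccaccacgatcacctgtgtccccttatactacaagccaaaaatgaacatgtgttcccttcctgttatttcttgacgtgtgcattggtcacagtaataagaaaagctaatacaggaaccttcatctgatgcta
ORR1B1 at chr4:139658492-139658791, in intron 2 of Tas1r2: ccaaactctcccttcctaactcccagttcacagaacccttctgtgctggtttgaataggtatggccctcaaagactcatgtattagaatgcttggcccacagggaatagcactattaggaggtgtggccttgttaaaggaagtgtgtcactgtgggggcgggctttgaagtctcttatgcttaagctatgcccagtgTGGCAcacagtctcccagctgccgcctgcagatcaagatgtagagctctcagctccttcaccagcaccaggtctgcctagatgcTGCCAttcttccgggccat
ORR1D1 at chr1:119232591-119232890, intergenic, nearest to Gli2: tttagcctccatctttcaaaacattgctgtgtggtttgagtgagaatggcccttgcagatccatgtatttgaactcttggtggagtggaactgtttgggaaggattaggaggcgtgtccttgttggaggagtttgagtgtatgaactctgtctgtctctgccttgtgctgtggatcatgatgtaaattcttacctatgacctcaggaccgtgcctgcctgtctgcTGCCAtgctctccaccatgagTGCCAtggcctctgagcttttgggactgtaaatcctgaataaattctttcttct
ORR1A2-int at chrX:4607097-4607396, intergenic, nearest to Gm5925: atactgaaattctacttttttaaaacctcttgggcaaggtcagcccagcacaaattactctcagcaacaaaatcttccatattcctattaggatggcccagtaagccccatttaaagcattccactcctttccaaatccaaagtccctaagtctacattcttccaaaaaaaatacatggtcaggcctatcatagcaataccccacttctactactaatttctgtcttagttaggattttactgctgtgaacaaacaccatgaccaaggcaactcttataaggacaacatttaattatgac
ORR1D2 at chr1:189349124-189349423, in intron 1 of Kcnk2: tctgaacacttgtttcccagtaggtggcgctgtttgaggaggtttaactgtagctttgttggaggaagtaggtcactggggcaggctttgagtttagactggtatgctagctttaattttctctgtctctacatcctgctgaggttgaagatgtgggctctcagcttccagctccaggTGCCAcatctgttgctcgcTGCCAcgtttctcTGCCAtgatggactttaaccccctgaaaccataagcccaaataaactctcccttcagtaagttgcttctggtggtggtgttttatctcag
The stretch from Zfp982 held 3 CG dinucleotides and the one from Dct 6, while the internal stretch near Gm5925 held 0 and had a GC content of 38.0%.

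Every ORR1 subfamily letter was represented. The ORR1A group held 371 peaks (27.3% of the members), ORR1D 297, ORR1B 264, ORR1E 182, ORR1C 140, ORR1F 92 and ORR1G 15. Among single subfamilies, ORR1E (182 peaks), ORR1B1 (175) and ORR1D1 (174) led, ahead of ORR1A2 (142) and ORR1D2 (118). Old and young subfamilies thus stood side by side in the list.

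**Figure D1:**
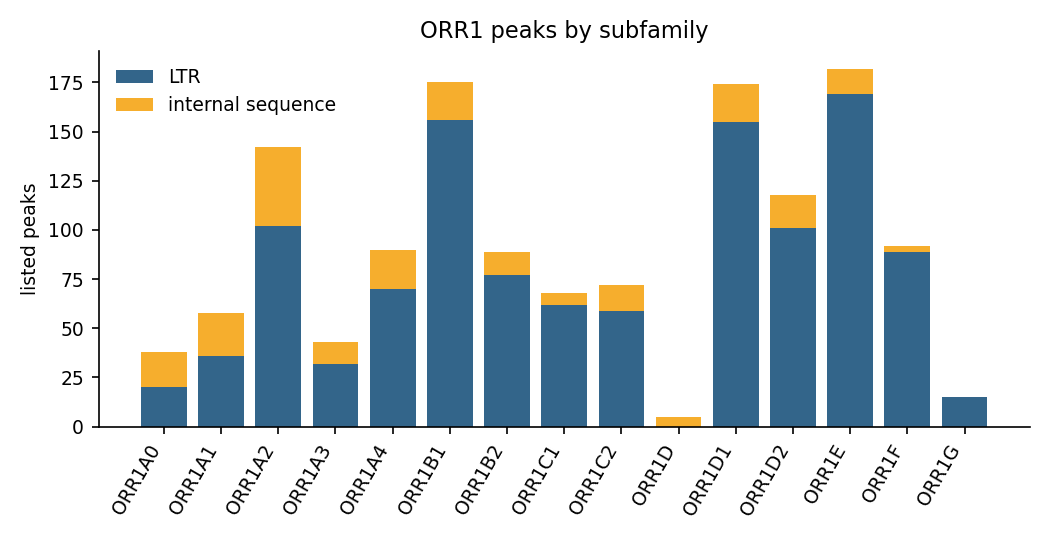
Number of listed peaks (vertical axis) in each ORR1 subfamily (horizontal axis), with peaks on the LTR in blue and on internal sequence in yellow. ORR1E, ORR1B1 and ORR1D1 have most peaks, and the yellow part is large in the ORR1A subfamilies, with 40 of 142 peaks in ORR1A2.

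LTRs carried 1143 of the peaks and internal sequence 218 (14.2 to 18.1% of the members). The internal share was 29.9% in the ORR1A group (25.5 to 34.8%), against 11.7% in ORR1B (8.40 to 16.2%), 13.8% in ORR1D and 7.14% in ORR1E. In ORR1A0, 18 of 38 peaks were internal. Of the 218 internal peaks, 192 had an ORR1 LTR copy within 3 kb (88.1%, 83.1 to 91.7%), and 117 had copies of the same strand on both sides (53.7%, 47.0 to 60.2%). For internal ORR1A peaks the latter share was 62.2% (52.9 to 70.6%). These counts rest on a search for LTR copies that recovers few of ORR1E, and in which ORR1F and ORR1G were not searched for. How often other peaks have an ORR1 LTR copy this near was not counted.

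The LTR peaks were then located among copies found in the genome. Consensus sequences were built from the LTR peaks of each subfamily, and those of 10 subfamilies were searched for in the whole genome. The consensus sequences of ORR1A0, ORR1A1, ORR1F and ORR1G were not used, being over 400 bases long or under 60% in mean agreement. The centre of 822 of 1140 LTR peaks lay in a copy found in this way. The share was 94.2% in ORR1A, 94.0% in ORR1B, 89.1% in ORR1C and 87.1% in ORR1D1, but 67.3% in ORR1D2 and 29.6% in ORR1E. ORR1F and ORR1G peaks could not be located in this way. The consensus sequences came from the LTR peaks themselves, at most 60 per subfamily. These shares are therefore no independent check of the repeat names. Of 245 ORR1A peaks found, 242 lay in a copy of an ORR1A consensus. Single subfamilies were told apart less well within ORR1A, with the same subfamily for 14 of 28 ORR1A3 peaks found and 43 of 63 ORR1A4 peaks, and all 56 ORR1A0 and ORR1A1 peaks counted to another ORR1A subfamily. Only 3 of 1575 MT peaks and 20 of 15903 peaks outside repeats had their centre in such a copy.

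Few of the copies in the genome carried a listed peak. For ORR1A to ORR1D1, the subfamilies that the search recovers well, 82955 copies spanning 23.2 Mb were found, of which 706 held the centre of an ORR1 peak (0.851%, 0.791 to 0.916%). This corresponds to 30.4 peaks per Mb of copy, beside 12.7 listed peaks per Mb over the 21 chromosomes. By group, 0.811% of ORR1A copies (0.717 to 0.918%), 0.974% of ORR1B copies (0.852 to 1.11%), 0.696% of ORR1C copies (0.576 to 0.841%) and 0.911% of ORR1D1 copies (0.772 to 1.07%) had one. Copies were counted to the subfamily whose consensus matched best. Per copy, the lowest of the 8 shares was that of ORR1C2 (0.612%, 0.468 to 0.799%) and the highest that of ORR1B1 (0.996%, 0.846 to 1.17%). Per Mb of copy, ORR1C2 was again lowest with 23.6 peaks, while ORR1D1 had 36.9 and ORR1B1 33.1. The consensus sequences were made from the peaks themselves, and what this does to the shares was not tested.

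**Figure D2:**
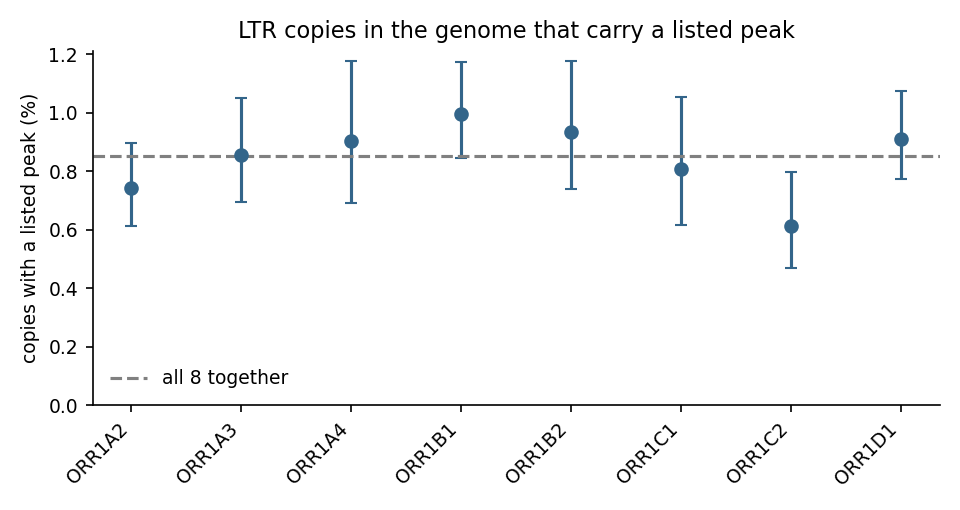
Share of the LTR copies found in the genome that hold the centre of a listed ORR1 peak (vertical axis, %) for 8 subfamilies (horizontal axis, by the best-matching consensus, so that ORR1A0 and ORR1A1 copies fall to other ORR1A subfamilies), with 95% Wilson intervals as bars and the share over all 8 as the dashed line (0.851%). The 8 shares lie between 0.612% for ORR1C2 and 0.996% for ORR1B1.

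Copies that spanned at least 90% of their consensus had a peak more often (1.02%, 0.933 to 1.12%) than shorter ones (0.665%, 0.590 to 0.750%). Per Mb of copy the values were near each other, at 29.9 and 31.1 peaks. By group, full-length and shorter copies had 26.9 and 29.4 peaks per Mb in ORR1A, 31.7 and 35.5 in ORR1B, 26.4 and 25.6 in ORR1C, and 41.9 and 31.3 in ORR1D1, so the direction was not shared. Copies with a second copy of their group nearby on the same strand had a peak in 0.933% of cases (0.761 to 1.14%) and those without in 0.840% (0.777 to 0.909%), with overlapping intervals. In 373 peaks of 500 bp on full-length LTRs, the centre lay in the first of 5 equal segments of the LTR in 26.5% (22.3 to 31.2%) and in the last in 56 of the 373, counted from the 5′ end on the strand that carries the polyadenylation hexamer AATAAA or ATTAAA.

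In median and quartiles, peak scores of ORR1 elements were near those of the list as a whole. The score is the authors' value, on a scale not given in the sources used here. ORR1 peaks had a median of 7.06, with quartiles at 6.10 and 8.66 and a range of 4.81 to 48.5. The whole list had the same median, with quartiles at 6.10 and 8.34, and MT peaks likewise. ERVK peaks, from the family that holds the IAP elements, had a median of 7.70 and an upper quartile of 10.3. A score of at least 20 was reached by 12 ORR1 peaks (0.882%, 0.505 to 1.53%), beside 1.60% of all listed peaks (1.47 to 1.74%). It was reached by 4.24% of ERVK peaks (3.69 to 4.87%) and by 0.444% of MT peaks (0.215 to 0.914%).

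**Figure D3:**
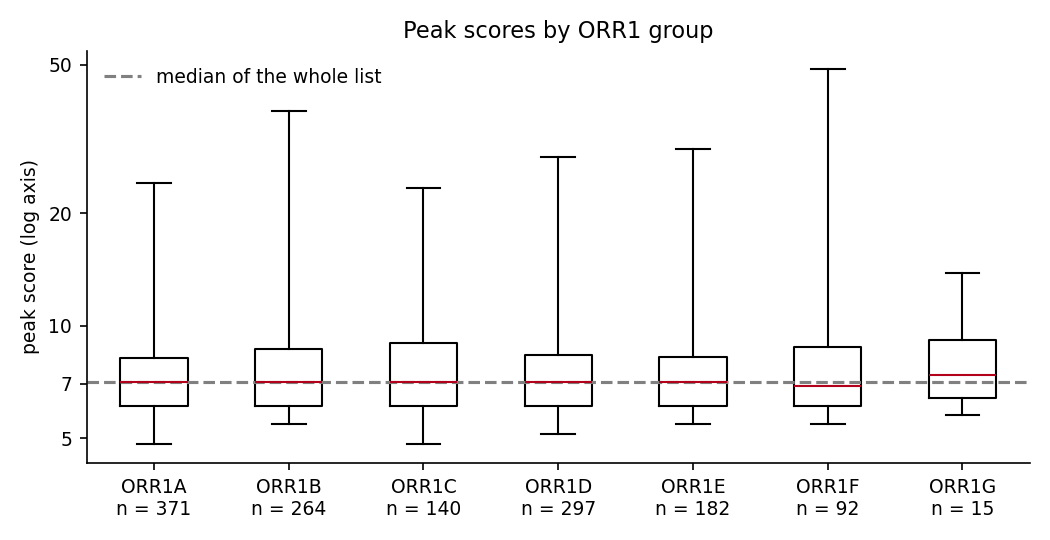
Peak score (vertical axis, log scale) of the ORR1 peaks in 7 groups (horizontal axis, with the number of peaks), where boxes are quartiles, red lines medians and whiskers the whole range, and the dashed line is the median of the whole list (7.06). The boxes overlap in all groups, and the highest value is the ORR1F peak at 48.5.

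Across groups, the median lay at 7.06 in ORR1A, ORR1B, ORR1C, ORR1D and ORR1E, at 6.90 in ORR1F and at 7.38 in ORR1G. LTR and internal peaks shared the median of 7.06. The ORR1 share of the list was 3.63% in the lowest quintile of scores and 3.99% in the highest quintile (3.56 to 4.48%). Scores moved with width: 1021 members had the list's most common width of 500 bp and a median score of 6.42, while the 340 wider ones had a median of 10.3. Peaks over 1 kb numbered 43, and the widest, of 1902 bp, lay in Tas1r2.

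The highest score, 48.5, belonged to the ORR1F peak in Zfp982, a zinc finger gene in a cluster on chromosome 4. An ORR1B2 peak in intron 7 of Mtus2, a microtubule-associated protein, followed with 37.5. Dct, a melanin synthesis enzyme, carried an ORR1E peak with a score of 29.8 in intron 6. The ORR1D2-int peak 44.9 kb upstream of Gramd3 had 28.2, the ORR1B2 peak at Csprs, on an unlocalized contig of chromosome 1, 27.3, and the ORR1E-int peak in intron 3 of Camta1, a calmodulin-binding transcription factor, 26.0. Gm5925 (24.1) and Btbd35f20 (23.4) were the genes nearest to high peaks on the X chromosome. The last of the 10 were an ORR1A4 peak in Fstl4 and the ORR1B1 peak in Tas1r2, a sweet taste receptor subunit, both at 22.5. The peaks at Gm5925 and Btbd35f20 consisted largely of repeated sequence, with 7.59% and 11.2% of their 50-base words found once in the genome. With words of 150 bases, the read length, the shares were 26.0% and 38.0%. For the peak in Zfp982 they were 47.9% at 50 bases and 84.5% at 150 bases.

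ORR1 peaks were spread over the autosomes and the X chromosome and were missing from the Y. Chromosomes 5 (117 peaks), 7 (108) and 13 (91) had most. The ORR1 share of listed peaks was 5.60% on chromosome 13 (4.58 to 6.82%) and 2.53% on chromosome 19 (1.66 to 3.84%), with an autosomal median of 3.98%. On the X chromosome 47 of 1215 listed peaks were ORR1 peaks (3.87%, 2.92 to 5.11%). On the Y chromosome the count was 0 of 566 listed peaks, which allows a share of up to 0.530% by the limit of 3 counts that a count of 0 allows (Wilson upper bound 0.674%). The search found 5896 ORR1A to ORR1D1 copies on the Y chromosome, of which 0 held an ORR1 peak, which allows up to 0.0509% by the same limit (Wilson upper bound 0.0651%). These Y copies had a median of 227 bases, beside 314 over all chromosomes, and 14.8% of them were full length (875 of 5896). Over all chromosomes, 51.7% of the copies without a peak were full length. The limit treats copies as independent and alike, which was not tested. On chromosome 5, 1.40% of copies held an ORR1 peak (1.10 to 1.79%).

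**Figure D4:**
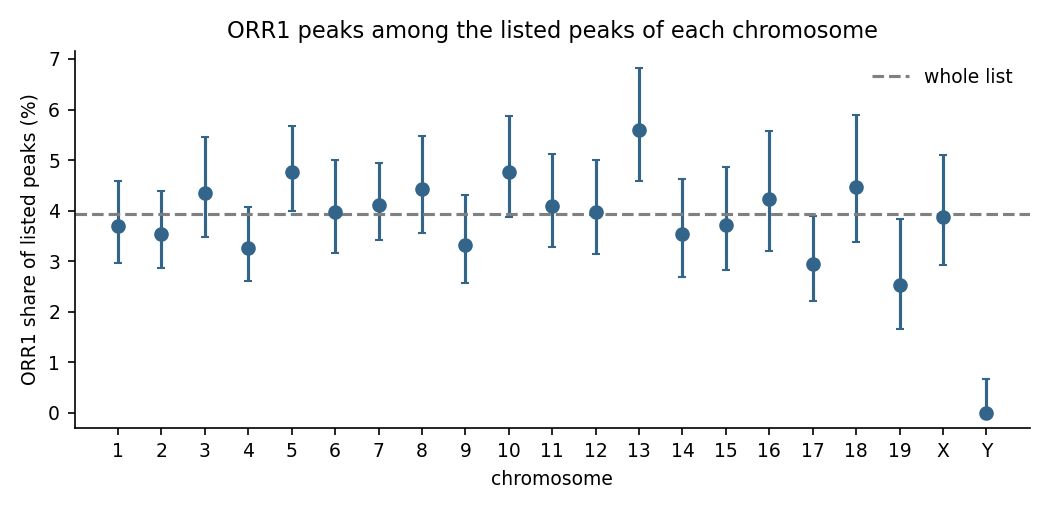
ORR1 share of the listed peaks (vertical axis, %) on each chromosome (horizontal axis), with 95% Wilson intervals as bars and the share over the whole list as the dashed line (3.93%). Chromosome 13 lies highest at 5.60%, and the Y chromosome is at 0.

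Windows of 1 Mb with at least 1 ORR1 peak numbered 883, and 575 of them had a single one. The most, 9 peaks, were found in 2 windows of the X chromosome, from 4 to 5 Mb and from 33 to 34 Mb. A further X window, from 3 to 4 Mb, held 8. The genes named there were mostly members of the Btbd35f family of BTB domain genes, which lie in multicopy clusters. On chromosome 10, from 81 to 82 Mb, 6 peaks lay near Zfp genes, among them Zfp781. Of the 1361 members, 516 had another listed peak within 10 kb (37.9%, 35.4 to 40.5%). The share was 34.3% in MT peaks (32.0 to 36.7%) and 33.3% over all listed peaks (32.8 to 33.8%). The neighbour was a peak outside repeats for 313 members (23.0%, 20.8 to 25.3%) and another ORR1 peak for 50.

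Peaks in introns made up 33.2% of the members (451 of 1360, 30.7 to 35.7%), and the rest were intergenic. Among all listed peaks in introns or intergenic sequence, the intronic share was 36.5% (36.0 to 37.1%). It was 34.1% in MT peaks and 17.3% in ERVK peaks. The deposited annotation gives a repeat name only to peaks in these 2 classes, so members in exons or promoters were not possible. The intronic share was 27.2% in ORR1A (22.9 to 32.0%) and 42.3% in ORR1E (35.4 to 49.6%). First introns held 139 of 450 intronic peaks (30.9%, 26.8 to 35.3%). Among ORR1A to ORR1D1 copies within transcripts, 67 of 225 with a peak lay on the strand of the gene (29.8%, 24.2 to 36.1%). Of those without a peak 33.1% did (32.6 to 33.7%), so sense copies were the minority with and without a peak, and the intervals overlap. With and without a peak, the values were 35.7% and 34.4% in ORR1A, 27.9% and 32.8% in ORR1B, and 38.5% and 31.6% in ORR1C. In ORR1D1 they were 18.2% (10.2 to 30.3%, 10 of 55 copies) and 32.8% (31.5 to 34.1%).

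The median distance from an ORR1 peak to the nearest TSS was 38.0 kb, with quartiles at 15.6 and 85.3 kb, and 17.4% lay within 10 kb (15.4 to 19.5%). Over all listed peaks, which include those in exons and promoters, the median was 37.4 kb and 19.4% lay within 10 kb. The share within 10 kb was 20.6% in intronic and intergenic peaks outside repeats and 11.4% in ERVK peaks. MT peaks had a median distance of 42.2 kb. The closest ORR1 peak was an ORR1D2 peak 126 bp downstream of the TSS of the noncoding RNA gene C330024D21Rik, with a score of 11.6. R3hcc1 had an ORR1E peak in its first intron, 151 bp from the TSS, and 4933411E08Rik an ORR1A2 peak at 326 bp. Dennd2c, a regulator of Rab proteins, had one 1.10 kb downstream of its TSS. Prss45, Lmnb2, Gm5907 and Upk3b had intergenic peaks 1.22 to 1.46 kb upstream, and Platr7 one 1.40 kb downstream, in an intron. The Rhbdd1 peak lay 1.40 kb upstream of the TSS it was assigned to, but within intron 1 of a transcript of that gene. Lmnb2 encodes lamin B2 of the nuclear envelope.

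In all, 1192 genes were named as nearest by at least 1 ORR1 peak, 1051 of them by a single one. The 928 protein-coding genes among them were 4.24% of the 21896 in RefSeq. With 4 peaks each, Zfp781, Btbd35f14, 1700017J07Rik, Gatsl2, Btbd35f10, 5730507C01Rik and Tshz3 had most. At Zfp781, the gene of the nearest TSS, 4 peaks on ORR1A4 and its internal part, in introns of Gm3055, had scores of 10.3, 15.1, 14.1 and 16. They lay as 2 pairs, 17.7 to 20.6 kb from a TSS, in sequence of which at most 13.0% was unique at 50 bases. At Tshz3, a zinc finger homeobox gene, 4 intergenic peaks with scores of 5.46 to 8.99 lay on ORR1E, ORR1F, ORR1B1 and ORR1A2 elements. Gm5925, Fstl4 and Zfp369 had 3 each. Zfp genes with an ORR1 peak numbered 26 of 397 (6.55%, 4.51 to 9.42%), and Btbd35f genes 15 of 30, families chosen after the values were seen. Other multicopy families lay below the 4.24% of all protein-coding genes. Vomeronasal receptor genes gave 7 of 353 (1.98%, 0.964 to 4.04%) and olfactory receptor genes 5 of 1110 (0.450%, 0.193 to 1.05%). The 30 peaks at Btbd35f genes had a median of 5.41% unique words of 50 bases.

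In a list of 16 genes made up of Setdb1 and its partners, BG markers and transcription factors, 1 had ORR1 peaks. This was Tcf4, a basic helix-loop-helix factor, with an ORR1A3 peak with a score of 7.06 and an ORR1B2 peak with 5.78, both over 100 kb from its TSS. In the axon guidance list 6 of 79 members had one (7.59%, 3.53 to 15.6%). These were Unc5b, a netrin receptor, with 2 peaks, Efnb2, an ephrin ligand, with an ORR1B1-int peak of score 10.9, Sema4a, a semaphorin, Cxcr4, a chemokine receptor, and 2 others. Of ECM-receptor genes 2 of 87 had a peak. The one assigned to Col4a1, a basement membrane collagen, had a score of 9.63 and lay in an intron of its neighbour Col4a2, and Sv2c had an ORR1C1 peak. Other collagens gave 2 of 26, Col25a1 and Col26a1.

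Granule lineage genes gave 3 of 24. Gli2, an effector of sonic hedgehog signalling, had an ORR1D1 peak with a score of 21.5 that lay 179.1 kb upstream and an ORR1D2 peak with 7.06. Gli1 had an ORR1D1 peak 3.37 kb upstream with a score of 6.10, and Ccnd1, a cell cycle regulator, one with 7.70. Purkinje cell genes gave 3 of 15, with Ebf2, Plcb4 and Shh at scores of 8.02, 7.06 and 5.78. The Ebf2 and Shh peaks were intergenic, 68.7 and 344.0 kb upstream, and the Plcb4 peak lay in intron 1 of that gene. BG and astroglial genes gave 2 of 32, with the glutamate receptor gene Gria1 (7.38) and A2m (6.42). In the H3K9 methylation list, 2 of 26 members had a peak, Atf7ip, a partner of Setdb1, with an ORR1D1 peak of score 12.5 that lay 4.36 kb upstream, and Zfp809, a repressor of retroviruses, with an ORR1B1 peak in intron 2. Oligodendrocyte genes gave 1 of 17 (Mbp), and microglial and vascular genes 0 of 20, which allows a share of up to 15% by the limit of 3 counts (Wilson upper bound 16.1%). The intervals of all these lists include the 4.24% of all protein-coding genes, except that of Purkinje cell genes (7.05 to 45.2%) and granule lineage genes (4.34 to 31.0%), which rest on 3 genes each. A listed peak of any kind was assigned to 12 of the 15 Purkinje cell genes and to 15 of the 24 granule lineage genes. Such assignment was common, as the whole list named 12948 genes. No share over all protein-coding genes is at hand to set beside these counts. Whether the higher shares are particular to ORR1 was not tested.

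ORR1 peaks had a median GC content of 47.9% (quartiles 45.7 and 49.6%), beside 49.1% over all listed peaks. The median CpG content was 0.798 per 100 bases, as in MT peaks, against 1.20 in the whole list and 1.64 in ERVK peaks. It was 0.599 in ORR1A and 1.20 in ORR1E. TGGCA was found on either strand in 88.7% of the ORR1 peaks (86.9 to 90.2%), in 76.7% of MT peaks (74.5 to 78.7%) and in 80.9% of all listed peaks. The longer TTGGCA was found in 28.7% (26.4 to 31.2%) and in 29.1% of all listed peaks. Internal peaks had it in 57.8% (51.2 to 64.2%) and LTR peaks in 23.2% (20.8 to 25.7%). TATAAA was present in 35.7% of ORR1 peaks (33.2 to 38.3%), in 16.9% of MT peaks (15.1 to 18.8%) and in 25.1% of all listed peaks. Among other repeat families it was present in 37.9% of ERVK, 38.2% of ERV1, 36.4% of L1 and 11.2% of ERVL peaks. These are matches of letters in peaks that share ancestry and are not independent.

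Most ORR1 peaks lay in sequence found once in the genome at the read length. The median share of 50-base words that occur once in the genome was 99.8%, and 47.9% of the peaks held only such words (45.2 to 50.5%), beside 50.4% of all listed peaks. With words of 150 bases, the read length, 89.0% did (87.2 to 90.5%), beside 80.3% of MT peaks (78.2 to 82.1%) and 55.8% of ERVK peaks (54.4 to 57.3%). At this length the share was 80.2% over all listed peaks and 90.9% in intronic and intergenic peaks outside repeats. At 50 bases the share was 6.74% in ORR1A (4.61 to 9.76%), 38.0% in ORR1B, 63.0% in ORR1C, 69.0% in ORR1D and 83.0% in ORR1E (76.8 to 87.7%). ORR1 peaks with under 50% single words numbered 140 (10.3%, beside 18.9% of all listed peaks), of which 72 were ORR1A peaks. These 140 had a median score of 7.70, beside 7.06 in the 650 peaks with single words alone. Reads with several matches were given their best location, so the position of peaks poor in single words is less certain.

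**Figure D5:**
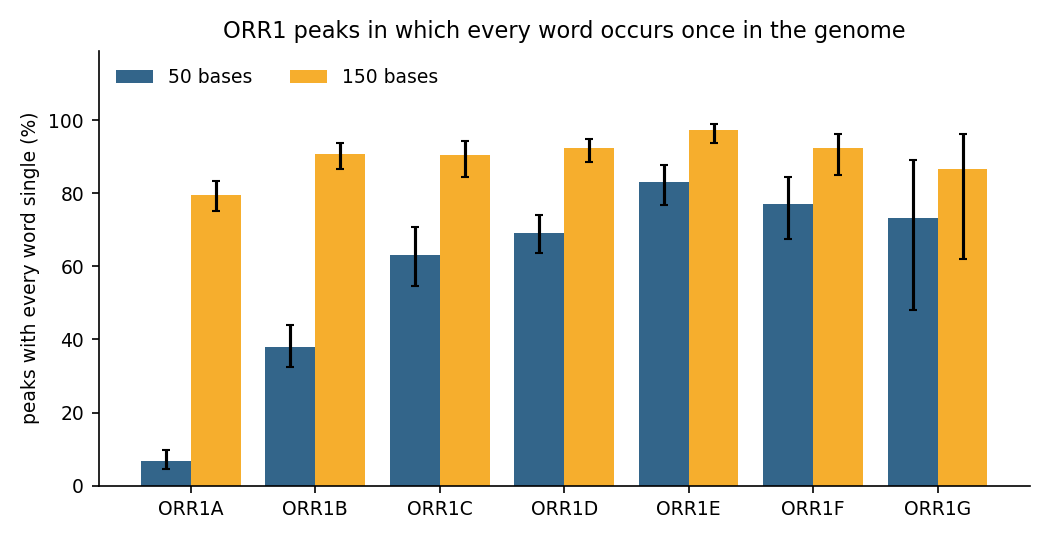
Share of ORR1 peaks (vertical axis, %) in which every word of 50 bases (blue) or 150 bases (yellow) occurs once in the genome, for 7 groups (horizontal axis), with 95% Wilson intervals as bars. At 50 bases the share runs from 6.74% in ORR1A to 83.0% in ORR1E, and at 150 bases it is 79.5% in ORR1A and 97.3% in ORR1E.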

How the data were processed

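H3K9me3 ChIP-seq of Bergmann glia (BG) was read from 1 deposited list of 34673 peaks found in WT BG but not in mutant BG. The authors aligned reads to mm10 with Bowtie2 (2.2.8 in the submitters' processing notes), gave a read matching several places its best location, kept a single tag per position and called peaks with HOMER (4.10.1 in the notes). The deposited peak score is the authors' value on a scale not given in the sources used here, and the deposited width and the distance to the transcription start site (TSS) are in bp. How libraries were merged, and whether input, mutant BG or both served as background, are also not given there. The list holds no value per library, so depth per sample is unknown, no spread between replicates can be had, and no test was run. Shares carry 95% Wilson intervals that cover counting error only.

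Sequence and transcripts came from RefSeq GRCm38.p6, the same build as mm10. Consensus sequences of LTR peaks from 10 subfamilies (mafft 7.526, at most 60 peaks each) were searched in the genome with blastn 2.17.0 (E-value 1e-10, hits of at least 100 bases). No sequence is printed from chromosome 18. The word counts and the motif search were checked on simulated data. The members, gene lists and named genes were chosen with earlier results of these data known. The genes named were those at the 10 highest scores, the 10 with most ORR1 peaks, the 10 closest TSSs, up to 4 members of each gene list and any member of a list of 16 genes on Setdb1 partners, BG markers and transcription factors. Alternatives were score and width filters, other distances, the central 200 bases and words of 150 bases.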

Additional observations from a re-analysis of the deposited data

How the results depend on the processing

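No paired analysis was possible because no library has values of its own in the list, and no replicate could be left out for the same reason. Of 31 recomputed values, 24 stayed within the interval or the quartiles of the value reported. The ORR1 share of ERVL-MaLR peaks was 43.8% and became 47.1% with scores at or above the 80th percentile. The share of members within 10 kb of a TSS (17.4%) was 7.65% within 5 kb. The share with another listed peak within 10 kb (37.9%) was 6.25% within 2 kb and 83.2% within 50 kb. The share with TTGGCA (28.7%) was 32.8% in peaks scoring at or above the list median, 11.4% in the central 200 bases and, in an alternative chosen after seeing the data, 25.8% in the central 500 bases. Shorter distances and windows can hold only fewer neighbours and matches, and the cause of the other changes was not tested. The intronic share was 33.9% when recomputed from RefSeq transcripts. Without depth or library values, a weaker mark in mutant BG cannot be told apart from its absence.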
